A study of Mus musculus with 8 samples.

Results

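The mitochondrial ribosomal protein genes were examined in mouse lung carcinoma cells after X-rays. They were taken by symbol, as all genes whose name on the array starts with Mrpl or Mrps and a digit, and kept where a probe was above the negative controls on at least 2 arrays. All 76 genes found by symbol were kept, of 13411 genes tested. Of these, 47 carry the large subunit name (Mrpl) and 29 the small subunit name (Mrps). They were represented by 126 probes, of which 117 were above the negative controls, and 29 genes had several kept probes. The members were above the negative controls in both channels on all 8 arrays, except Mrpl1, which was so on 7 of 8 arrays in the irradiated channel.

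Mitochondria hold their own ribosome, which translates the few proteins encoded by mitochondrial DNA, all of them subunits of the respiratory chain and ATP synthase. Its ribosomal RNAs come from mitochondrial DNA, while its proteins are encoded in the nucleus, made in the cytosol and imported. Some of these proteins have a counterpart in the bacterial ribosome and others are specific to mitochondria. The large subunit forms the peptide bond and holds the exit tunnel, and the small subunit binds and decodes the messenger RNA.

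RNA came from LLC1, an established line of Lewis lung carcinoma from C57BL/6 mice grown in culture, harvested 4 h after treatment. Each of the 8 dual-colour arrays set irradiated cells (Cy5) against untreated cells (Cy3), with the dyes never exchanged, so a dye effect of a probe cannot be told apart from a difference to untreated cells. On 3 arrays the irradiated cells had received 2 Gy at once, on 2 arrays 10 Gy at once, and on 3 arrays 5 fractions of 2 Gy each, for the same total of 10 Gy (written 5x2 Gy). According to the labels each regimen had 3 biological replicates. Replicate 3 of 10 Gy was not analysed here. The spacing of the fractions and the sharing of untreated RNA between arrays are not given in the sources used here.

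There were 2 slides. All 2 Gy arrays shared slide 1 with replicate 1 of 10 Gy, and all 5x2 Gy arrays shared slide 2 with replicate 2 of 10 Gy. Between the 2 Gy and the 5x2 Gy arrays, the pair of 10 Gy arrays is thus the sole link across slides. Of the epithelial and carcinoma markers, Krt8, Krt18, Krt19 and Vim were above the negative controls on all arrays in both channels, while Epcam, Cdh1 and Nkx2-1 were so on none. The leukocyte marker Ptprc and the endothelial marker Pecam1 were above them on none, and the macrophage marker Cd68 on all. Cd3e was above them on 8 arrays in the untreated and 3 in the irradiated channel, Cdh5 on 3 and 2, Col1a1 on 7 and 0, Col1a2 on 4 and 1, Pdgfra on 3 and 3, Thy1 on 2 and 1, and Sftpc on 1 and 0, and their part in the results was not tested. A pair of p53 targets that respond to radiation stood above untreated cells in each regimen: Cdkn1a by 0.88, 2.6 and 1.27 and Ccng1 by 1.12, 2.00 and 1.64 on the log2 scale after 2 Gy, 10 Gy and 5x2 Gy, with limma's adjusted p under the threshold of 0.05 for all but Cdkn1a after 2 Gy (adjusted p = 0.088).

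After 5x2 Gy, 36 of the 76 mitochondrial ribosomal protein genes were lower and 1 was higher than in untreated cells at limma's adjusted p of 0.05. Over all genes tested, 41% were called in that comparison, 17.6% higher and 23.4% lower, against 1.32% higher and 47.4% lower of the members. After 2 Gy, 2 members were higher and 5 lower, where 16.9% of all genes were called, 8.99% higher and 7.93% lower. After 10 Gy, 2 members were higher and 8 lower, where 28.2% of all genes were called, 12.4% higher and 15.8% lower. After both single doses the called share of the members, 9.21% and 13.2%, was thus below that of all genes. With median centring in place of loess, 24 members were higher and 0 lower after 2 Gy, and 16 were higher and 3 lower after 10 Gy, where 26.9% and 29.2% of all genes were called. The comparisons share the spread of the 8 arrays, and for the comparisons with untreated cells possibly the untreated RNA.

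The median log2 ratio of the members on single arrays was 0.015, -0.091 and -0.047 after 2 Gy, -0.073 and -0.076 after 10 Gy, and -0.22, -0.37 and -0.31 after 5x2 Gy. The 5x2 Gy arrays were the 3 lowest, and their values lay apart from those of the other 5 arrays. Over the fitted means the median was -0.060 after 2 Gy, -0.11 after 10 Gy and -0.32 after 5x2 Gy, beside -0.0029, -0.056 and -0.020 for all genes. Median centring, which moved the median of all genes after 2 Gy to 0.13, turned the members' medians to 0.28 after 2 Gy and 0.20 after 10 Gy and left that after 5x2 Gy below 0, at -0.25. The sign of the small shift after the single doses therefore rests on the normalization within arrays. Of the 76 members, 47 were below 0 on all 3 arrays of 5x2 Gy (40% of all genes were) and 8 were above 0 on all 3 (35.5% of all genes were). Below 0 on all arrays lay 28 members after 2 Gy and 27 after 10 Gy, against 33.1% and 33.5% of all genes.

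**Figure D1:**
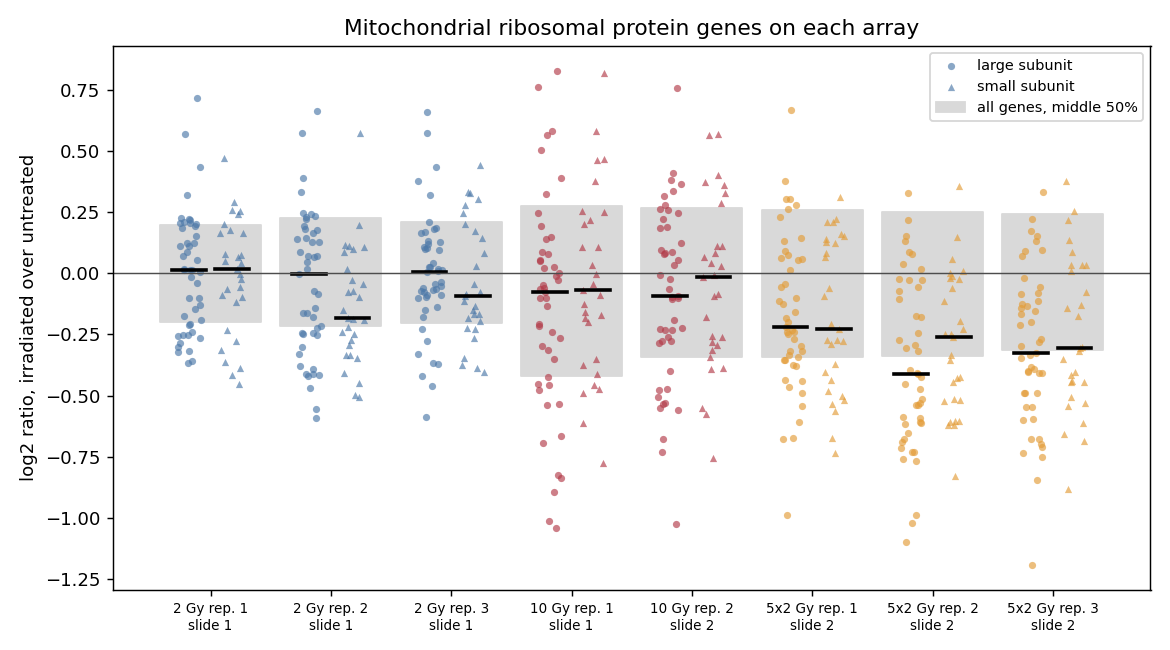
Log2 ratio of irradiated over untreated cells (y axis) for each of the 76 members on each of the 8 arrays (x axis, with slide). Circles are large subunit genes, triangles small subunit genes, black lines their medians, and grey boxes the middle 50% of all 13411 genes. On the 3 arrays of 5x2 Gy the medians of both subunits lie between -0.41 and -0.22.

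The count after 5x2 Gy depended on single arrays and on how slides were treated. It was 18 members without replicate 2 of 5x2 Gy and 18 without replicate 3, of which 14 were the same genes, all lower, where 23.1% and 22.4% of all genes were called. Without either of the 10 Gy arrays it was 45 (59.5% of all genes). With slide as a fixed block it was 25 (1 higher, 24 lower, 36.5% of all genes), of which 18 were among the 37 called in the main fit. With slide as a random block it was 3, namely Mrpl1, Mrpl13 and Mrpl42, all lower (6.09% of all genes). With median centring it was 22 (2 higher, 20 lower, 39% of all genes). The members' median lay below 0 under each of the 21 alternatives run, between -0.36 and -0.24. It is taken over means of the 5x2 Gy arrays, so leaving out an array of another regimen could not move it from -0.32. Those runs are no test of its sign.

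**Figure D2:**
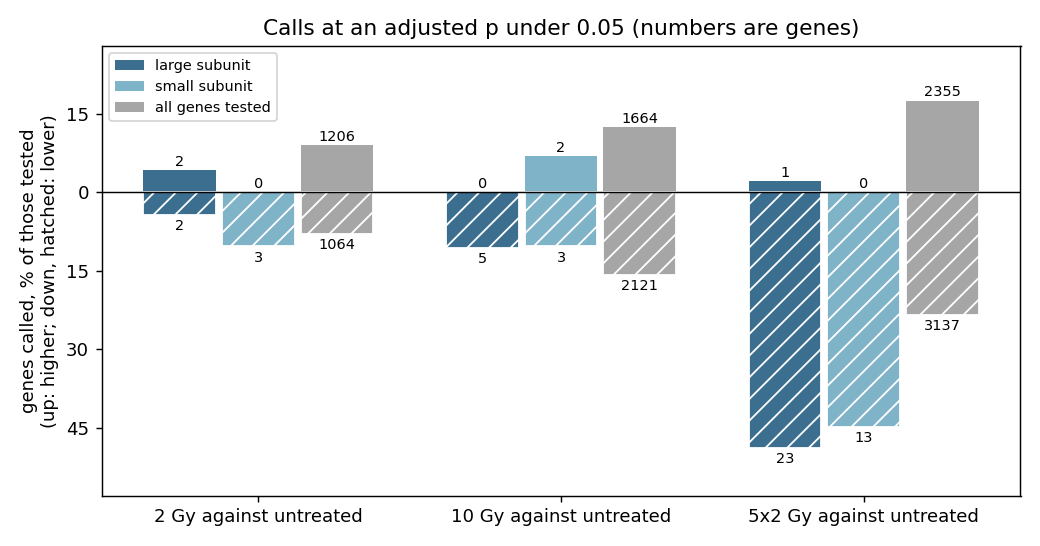
Share of genes called at limma's adjusted p of 0.05 (y axis, in %, higher above 0 and lower below 0, hatched) in the 3 comparisons with untreated cells (x axis), for large subunit genes, small subunit genes and all genes tested, with the number of genes at each bar. After 5x2 Gy, 23 of 47 large and 13 of 29 small subunit genes were lower.

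Genes of both subunits were lower. After 5x2 Gy, 23 of 47 large subunit genes (48.9%) and 13 of 29 small subunit genes (44.8%) were lower, with medians of -0.33 and -0.30. The large subunit median minus that of the small subunit was 0.010, -0.15 and -0.020 after 5x2 Gy, -0.0093 and -0.077 after 10 Gy, and -0.0034, 0.18 and 0.097 after 2 Gy. Within 2 Gy and 5x2 Gy the difference took either sign, and it was smaller than its spread between arrays after 5x2 Gy. Names and structure differ for 3 members. Mrps30 and Mrps18a sit in the large subunit despite their names, and Mrps36 is now known as a part of a dehydrogenase complex. With Mrps30 and Mrps18a counted as large and Mrps36 left out, 24 of 49 large and 11 of 26 small subunit genes were lower after 5x2 Gy, and the small subunit median moved to -0.20. Grouped by origin, 20 of 46 members with a bacterial counterpart (43.5%) and 15 of 29 specific to mitochondria (51.7%) were lower.

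**Figure D3:**
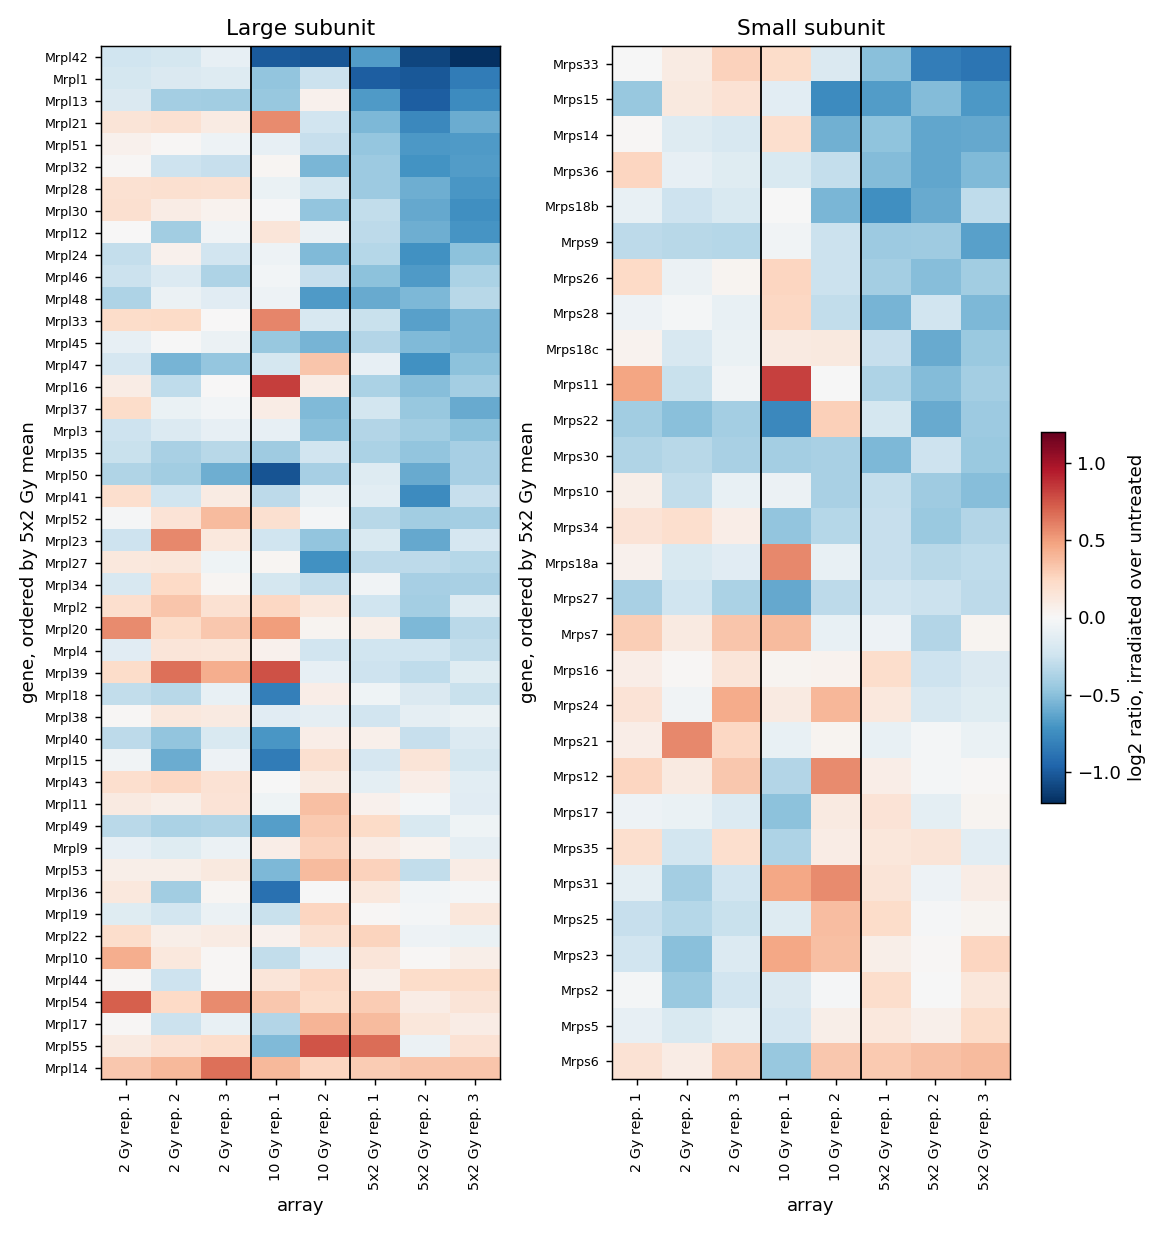
Log2 ratios (colour scale, blue lower and red higher than untreated cells) of all 76 members (rows, ordered by their mean after 5x2 Gy) on the 8 arrays (columns), large subunit on the left and small subunit on the right. Most rows are blue on the 3 arrays of 5x2 Gy, while the columns of the 10 Gy arrays differ from each other.

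The deepest change was that of Mrpl42, a large subunit protein specific to mitochondria. Its log2 ratio was -0.67, -1.10 and -1.19 after 5x2 Gy, -1.01 and -1.02 after 10 Gy, and -0.24, -0.21 and -0.10 after 2 Gy. The arrays of 5x2 Gy and 10 Gy overlapped, and all lay below those of 2 Gy. Mrpl42 fell by 0.99 after 5x2 Gy (SE 0.11, 1.98-fold lower, limma's adjusted p = 0.00034) and by 1.02 after 10 Gy (SE 0.13, adjusted p = 0.00090), while the value after 2 Gy was -0.18 (SE 0.11, adjusted p = 0.27). Its second kept probe gave -0.88 after 5x2 Gy.

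Mrpl1, the counterpart of the bacterial protein of the mobile L1 stalk, had log2 ratios of -0.99, -1.02 and -0.84 on the 5x2 Gy arrays. They were -0.48 and -0.26 after 10 Gy and -0.21, -0.18 and -0.15 after 2 Gy. On this probe the regimens did not overlap and followed the order 2 Gy, 10 Gy, 5x2 Gy. The other 2 kept probes did not follow that order, with means of -0.18, -0.071 and -0.044 and of -0.31, -0.20 and -0.29. All 5x2 Gy arrays lay below all 2 Gy arrays in 25.9% of all genes. Mrpl1 fell by 0.95 after 5x2 Gy (SE 0.09, limma's adjusted p = 0.00019) and by 0.37 after 10 Gy (SE 0.11, adjusted p = 0.031). The size rests on the probe, since the other 2 kept probes gave -0.29 and -0.044 after 5x2 Gy, and with the mean of all probes the fall was 0.43. With that mean Mrpl1 was not called after 10 Gy (-0.21, adjusted p = 0.22).

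Mrpl13, a large subunit protein with a bacterial counterpart, was at -0.68, -0.99 and -0.75 on the 5x2 Gy arrays and fell by 0.80 (SE 0.12, limma's adjusted p = 0.0010). After 10 Gy it was at -0.46 and 0.054, which took both signs, and after 2 Gy at -0.17, -0.41 and -0.42. Mrps33, a small subunit protein specific to mitochondria, was at -0.50, -0.83 and -0.88 on the 5x2 Gy arrays and fell by 0.74 (SE 0.12, adjusted p = 0.0013). Its 2 Gy and 10 Gy arrays lay between -0.18 and 0.28, above all arrays of 5x2 Gy. The other kept probes of Mrps33 gave -0.74 and -0.020 after 5x2 Gy. With the mean of all its probes Mrps33 fell by 0.50 (limma's adjusted p = 0.0052). Mrpl21, a large subunit protein of bacterial descent, was at -0.54, -0.77 and -0.59 on the 5x2 Gy arrays and fell by 0.63 (SE 0.14, adjusted p = 0.0055). Its 10 Gy arrays were far apart, at 0.56 and -0.23.

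Mrpl14, a large subunit protein at the interface of the subunits, was the member called higher after 5x2 Gy. It was above 0 on all 8 arrays, at 0.30, 0.33 and 0.33 after 5x2 Gy, 0.39 and 0.26 after 10 Gy, and 0.32, 0.39 and 0.66 after 2 Gy. It rose by 0.46 after 2 Gy (SE 0.09, limma's adjusted p = 0.012) and by 0.32 after 5x2 Gy (SE 0.09, adjusted p = 0.022), and after 10 Gy the value was 0.33 (SE 0.11, adjusted p = 0.059). Its change after 5x2 Gy minus that after 2 Gy was -0.14 (95% interval -0.43 to 0.16). As the dyes were never exchanged, a dye effect of the Mrpl14 probe was not tested.

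The base sequence before the start was read for 67 of the 76 members from RefSeq (build GRCm38.p6, 250 bases before each start). Binding motifs of regulators of mitochondrial genes were searched on both strands: NRF1 as GCGC, AN and GCGC without a gap, ETS factors such as GABP as CCGGAAG, YY1 as AANATGGC, and the E-box CACGTG. None of these motifs is part of another. The NRF1 motif was in 13.4% of the members' windows and 3.86% of all windows of this length, the ETS motif in 23.9% and 7.05%, the YY1 motif in 10.4% and 3.93%, and the E-box in 7.46% and 6.05%. The members' windows had a median GC content of 58.4%, against 52% for all. Of the 33 windows of members lower after 5x2 Gy, 12.1% held the NRF1 motif, 18.2% the ETS motif, 12.1% the YY1 motif and 9.09% the E-box. Of the 34 windows of the other members, 14.7%, 29.4%, 8.82% and 5.88% did. The difference between these shares was not tested. A match describes the letters and is no binding site by itself.

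Of the 67 members, 24 (35.8%) had a start within 1000 bases of the start of a gene on the other strand that runs away from it, against 10.5% of all genes. Of the 22 such neighbours that are not members, 19 were measured, and after 5x2 Gy 2 were lower, 2 higher and 15 not called. Over all genes, 23.4% were lower and 17.6% higher in that comparison. The sequences below show 6 members chosen for these results after their values were seen: Mrpl42, the deepest change, Mrpl45, which followed it most closely, Mrps27, lower in all regimens, and 3 with a close neighbour. Where a neighbour starts within 250 bases, only the bases between the starts are given. All are 5' to 3' on the member's strand, with the motifs in capitals.
Mrpl42 (chr10:95501950-95502199, minus strand, no motif): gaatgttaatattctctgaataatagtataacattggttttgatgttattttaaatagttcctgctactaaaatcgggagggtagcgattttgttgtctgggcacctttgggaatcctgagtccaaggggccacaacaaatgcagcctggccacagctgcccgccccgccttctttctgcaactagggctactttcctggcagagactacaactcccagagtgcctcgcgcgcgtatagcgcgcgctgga
Mrpl45 (chr11:97315466-97315715, plus strand, NRF1 at 120 to 111 and 38 to 29 bases before the start): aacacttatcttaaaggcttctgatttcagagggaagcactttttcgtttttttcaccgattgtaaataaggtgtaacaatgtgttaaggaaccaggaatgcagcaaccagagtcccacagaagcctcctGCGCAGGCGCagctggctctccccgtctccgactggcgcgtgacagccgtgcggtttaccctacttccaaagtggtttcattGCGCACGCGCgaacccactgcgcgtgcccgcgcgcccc
Mrps27 (chr13:99344679-99344785, plus strand, ETS at 48 to 42 bases before the start, up to Ptcd2): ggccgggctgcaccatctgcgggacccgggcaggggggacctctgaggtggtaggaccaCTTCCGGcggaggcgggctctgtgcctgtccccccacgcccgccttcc
Mrpl46 (chr7:78783090-78783130, minus strand, no motif, up to Mrps11): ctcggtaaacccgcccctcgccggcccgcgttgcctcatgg
Mrpl14 (chr17:45686219-45686348, plus strand, no motif, up to Tmem63b): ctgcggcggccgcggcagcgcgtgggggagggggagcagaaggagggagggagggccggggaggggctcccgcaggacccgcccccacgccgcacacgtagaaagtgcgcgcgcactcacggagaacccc
Mrpl2 (chr17:46646081-46646220, plus strand, E-box at 131 to 126 bases before the start, up to Klc4): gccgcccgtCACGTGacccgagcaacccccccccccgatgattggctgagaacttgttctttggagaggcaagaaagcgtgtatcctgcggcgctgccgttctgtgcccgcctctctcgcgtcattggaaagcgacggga

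Of the 24 members with such a neighbour, 1 was lower with its neighbour lower after 5x2 Gy, 1 was higher with its neighbour higher, and 1 was lower with its neighbour higher. In 10 the member was lower and the neighbour was not called, in 2 only the neighbour was lower, and in 6 neither was called. The neighbour was not measured for 2 lower members and for 1 member not called. Over all genes, 23.4% were lower and 17.6% higher after 5x2 Gy. Mrpl46 and Mrps11, a member of each subunit, start 42 bases apart. Mrpl46 fell by 0.52 after 5x2 Gy (SE 0.10, limma's adjusted p = 0.0033), and Mrps11 was at -0.43 (SE 0.17, adjusted p = 0.066). Mrps27 and Ptcd2, which encodes a mitochondrial RNA-binding protein, were both lower, by 0.27 (SE 0.09, adjusted p = 0.041) and 0.40 (SE 0.09, adjusted p = 0.0065). Mrpl14 and Tmem63b were both higher, with Tmem63b rising by 0.98 (SE 0.11, adjusted p = 0.00034). Mrpl2 fell by 0.27 (SE 0.09, adjusted p = 0.039) where Klc4, 141 bases away, rose by 0.93 (SE 0.13, adjusted p = 0.00090).

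The falls after 5x2 Gy were small apart from the deepest: the 36 lower members lay between -0.99 and -0.27. No member called after 5x2 Gy changed by a factor of 2 or more. Of the 29 members with several kept probes, 15 were called after 5x2 Gy, and in 13 of these all probes had the same sign. The exceptions in sign were Mrpl45, whose second probe gave 0.28 against -0.48, and Mrps26, whose second probe gave 0.11 against -0.44. The same sign did not mean the same size. Another kept probe lay near 0 for Mrpl1 (-0.044 against -0.95), Mrpl35 (-0.022 against -0.42) and Mrps33 (-0.020 against -0.74).

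**Figure D4:**
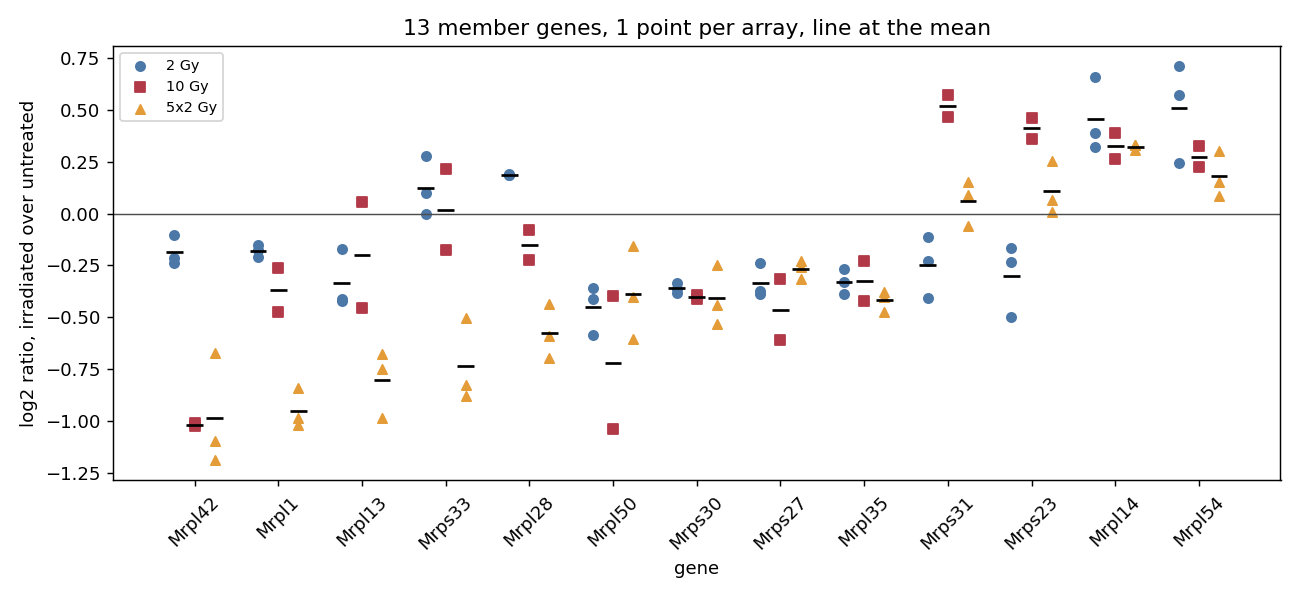
Log2 ratios of irradiated over untreated cells (y axis) for 13 named members (x axis), with 1 point per array and a line at the mean of each regimen. Mrpl42 is low on the arrays of 10 Gy and 5x2 Gy, Mrps30 and Mrpl35 lie below 0 on all 8 arrays, and Mrpl14 lies above 0 on all 8.

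After the single dose of 2 Gy, 7 members were called. Mrpl54, a large subunit protein specific to mitochondria, was at 0.71, 0.24 and 0.57 and rose by 0.51 (SE 0.11, limma's adjusted p = 0.013), the largest rise, followed by that of Mrpl14. Mrpl50, likewise specific to mitochondria, was at -0.36, -0.41 and -0.59 and fell by 0.45 (SE 0.13, adjusted p = 0.046). Mrps9, of bacterial descent, was at -0.31, -0.33 and -0.35 and fell by 0.33 (SE 0.09, adjusted p = 0.036), while its other kept probe gave -0.13. The remaining lower members were Mrps30, Mrps27 and Mrpl35. These calls are close to the threshold: without replicate 1, 2 or 3 of 2 Gy 1, 1 and 0 members were called, without an array of 5x2 Gy 2 or 3, and without either array of 10 Gy 24 (9 higher, 15 lower, where 40.2% of all genes were called). With slide as a random block none was called (0.157% of all genes). Without replicate 1, 2 or 3 of 2 Gy, 7.02%, 3.61% and 3.04% of all genes were called, and without an array of 5x2 Gy 10.8% to 12.5%. With the mean of all kept probes of a gene, 5 of the 7 calls were kept.

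The members Mrpl35, Mrpl50, Mrps27 and Mrps30, were lower in all 3 comparisons with untreated cells, and no member was called in opposite directions by regimens. Mrps30 was at -0.36, -0.33 and -0.39 after 2 Gy, -0.41 and -0.39 after 10 Gy, and -0.53, -0.25 and -0.44 after 5x2 Gy. Its means of -0.36, -0.40 and -0.41 did not differ by regimen beyond their error, with 5x2 Gy minus 2 Gy at -0.048 (95% interval -0.33 to 0.23). With the dyes never exchanged, a dye effect of its probe was not tested. Mrpl35, a large subunit protein of bacterial descent, was at -0.27, -0.39 and -0.33 after 2 Gy, -0.42 and -0.23 after 10 Gy, and -0.38, -0.47 and -0.40 after 5x2 Gy. It had the narrowest range over the 8 arrays of all members, 0.24, followed by Mrps30 with 0.29 and Mrpl22 with 0.34. The direction of Mrpl35 rests on the normalization: with median centring it was at 0.063 after 2 Gy and 0.055 after 10 Gy. Its calls also rest on the probe, since the other kept probe gave 0.0048, -0.029 and -0.022 after 2 Gy, 10 Gy and 5x2 Gy. With the mean of both probes Mrpl35 was called in none of the 3 comparisons (-0.16, -0.18 and -0.22, limma's adjusted p = 0.24, 0.26 and 0.082). Mrps27, a small subunit protein that binds RNA, fell by 0.33, 0.46 and 0.27 after 2 Gy, 10 Gy and 5x2 Gy (SE 0.09, 0.11 and 0.09).

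After the single dose of 10 Gy, 10 members were called. Besides Mrpl42, the largest falls were those of Mrpl50 by 0.72 (SE 0.16, limma's adjusted p = 0.011), Mrpl45 by 0.51 (SE 0.11, adjusted p = 0.0074), Mrps27 by 0.46 and Mrps34 by 0.41 (SE 0.10, adjusted p = 0.018). Mrpl45, which holds the large subunit at the inner membrane, was at -0.45 and -0.56, and Mrpl50 at -1.04 and -0.40. The other kept probe of Mrpl45 gave 0.27 after 10 Gy, and with the mean of both probes Mrpl45 was at -0.12 and not called (adjusted p = 0.40). The members called higher were both of the small subunit and specific to mitochondria. Mrps31 was at 0.47 and 0.57 and rose by 0.52 (SE 0.11, adjusted p = 0.0095), and Mrps23 at 0.46 and 0.36 and rose by 0.41 (SE 0.12, adjusted p = 0.031). Without replicate 1 of 10 Gy 19 members were called and without replicate 2 29, where 35.2% and 45.3% of all genes were. With only the 10 Gy arrays in the fit none was called (2.24% of all genes), and with slide as a random block 1 (10.9% of all genes).

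The 10 Gy arrays, which lay on different slides, differed more than arrays of the other regimens, over the members as over all genes. The median range between the 10 Gy arrays was 0.41 for the members and 0.41 for all genes. It was 0.23 and 0.25 after 2 Gy, and 0.23 and 0.23 after 5x2 Gy. Over the 76 members, the log2 ratios of the 10 Gy arrays had a Pearson correlation of 0.035, against 0.43 over all genes. Between arrays of 2 Gy it was 0.46 to 0.73 and between arrays of 5x2 Gy 0.76 to 0.86 over the members. Over all genes these were 0.65 to 0.81 and 0.83 to 0.89. Replicate 2 of 10 Gy had a correlation of 0.61 to 0.74 with the 5x2 Gy arrays on its slide (0.75 to 0.85 over all genes). Replicate 1 had one of 0.35 to 0.47 with the 2 Gy arrays on its slide (0.39 to 0.51 over all genes). These are descriptions over genes, which are not independent, of arrays that share a slide and possibly untreated RNA. The widest ranges over the 8 arrays, 1.34 for Mrpl16, 1.34 for Mrps11 and 1.33 for Mrpl21, had their highest value on replicate 1 of 10 Gy (0.83, 0.82 and 0.56). That array also had the widest spread over all genes, with an SD of 0.69 against 0.33 to 0.46 on the other arrays.

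**Figure D5:**
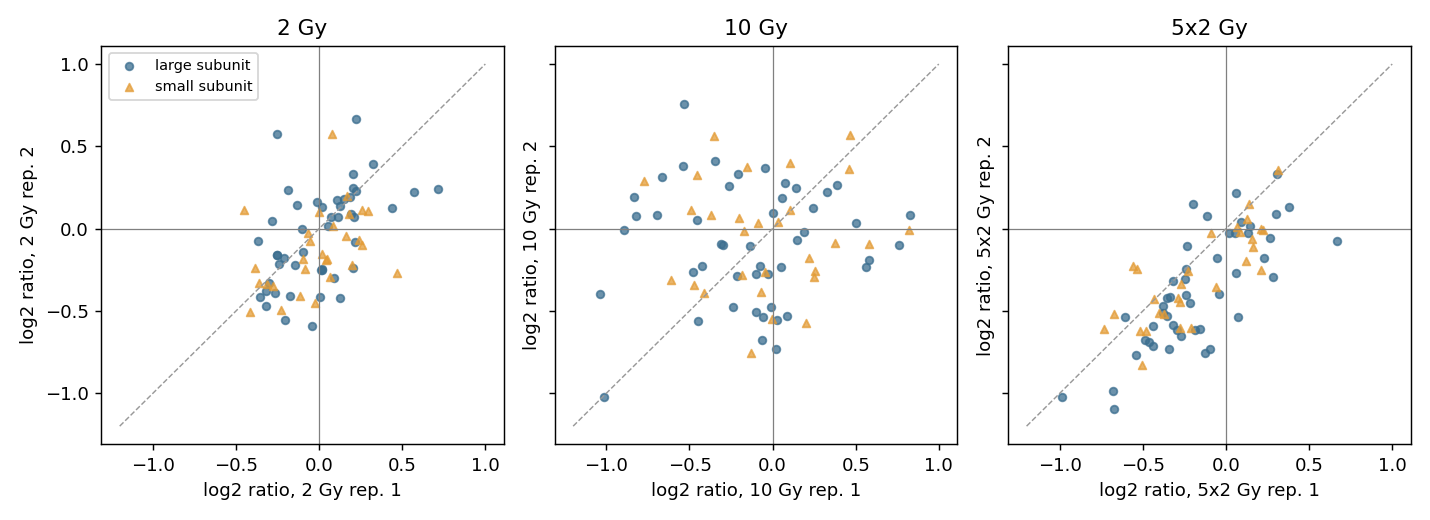
Log2 ratios of the 76 members on replicate 1 (x axis) against replicate 2 (y axis) of 2 Gy, 10 Gy and 5x2 Gy, with the line of equal values dashed. The members scatter along the line after 2 Gy (r = 0.46) and 5x2 Gy (r = 0.76) and show no such relation after 10 Gy (r = 0.035).

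Within a slide, the regimens could be set side by side for the members. On slide 2, replicate 2 of 10 Gy minus the mean of the 5x2 Gy arrays had a median of 0.17 over the members (0.00036 over all genes), with 56 members above 0 (50.1% of all genes). Of the 76, 42 lay above all 3 arrays of 5x2 Gy there and 8 below all 3, against 31.4% and 29.8% of all genes. On slide 1, replicate 1 of 10 Gy minus the mean of the 2 Gy arrays had a median of -0.070 (-0.036 over all genes), with 33 members above 0 (46.8% of all genes). Of the 76, 22 lay above all 3 arrays of 2 Gy and 36 below all 3, against 35.1% and 42.2% of all genes. Each sets 1 array against 3. The fit with slide as a fixed block likewise has 1 array of 10 Gy per slide, so its p-values measure no spread between 10 Gy arrays. With slide as a fixed block, which compares these regimens within their slides, limma called 5 members higher and 9 lower for 10 Gy against 2 Gy, where 32.1% of all genes were called. For 5x2 Gy against 10 Gy that fit called none, as for 0% of all genes.

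Between 10 Gy and 2 Gy, 2 members were higher and 1 lower at limma's adjusted p of 0.05, where 2.56% of all genes were called, 1.04% higher and 1.52% lower. After 10 Gy, Mrps31 was higher by 0.77 (SE 0.15, adjusted p = 0.038) and Mrps23 by 0.71 (SE 0.16, adjusted p = 0.047), both from below 0 on all 2 Gy arrays to above 0 on both 10 Gy arrays. The other kept probe of Mrps23 gave 0.17 after 2 Gy and 0.47 after 10 Gy, and with the mean of both probes the difference was 0.51 (adjusted p = 0.082). Mrpl42 was lower by 0.83 (SE 0.17, adjusted p = 0.042). Without any 1 of the 2 Gy or 5x2 Gy arrays none was called, without replicate 1 of 10 Gy 7 (11.2% of all genes) and without replicate 2 14 (32.1%).

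Between 5x2 Gy and 2 Gy, 4 members were lower and none higher, where 1.3% of all genes were called, 0.38% higher and 0.925% lower. At an unadjusted p under 0.05, 27 members were lower and 4 higher, against 15.2% and 10.4% of all genes. Mrps33 was lower by 0.86 (SE 0.16, limma's adjusted p = 0.045), Mrpl42 by 0.80 (SE 0.15, adjusted p = 0.046), Mrpl1 by 0.77 (SE 0.12, adjusted p = 0.037) and Mrpl28, of bacterial descent, by 0.76 (SE 0.12, adjusted p = 0.037). Mrpl28 was at 0.19, 0.19 and 0.18 on the 2 Gy arrays and at -0.44, -0.59 and -0.70 on the 5x2 Gy arrays, and the groups did not overlap. The other kept probe of Mrpl28 gave 0.18 after 2 Gy and -0.20 after 5x2 Gy, and with the mean of both probes the difference was -0.57 (adjusted p = 0.052). Of the other kept probes of Mrps33, 1 went from -0.24 after 2 Gy to -0.74 after 5x2 Gy and 1 from -0.040 to -0.020. With the mean of all kept probes of a gene, 1 of the 4 calls was kept. Upwards, the smallest p-values were those of Mrps23 at 0.41 (adjusted p = 0.12) and Mrps25 at 0.38 (adjusted p = 0.17). The 5x2 Gy arrays were all below the 2 Gy arrays in 39 members and all above in 10, against 25.9% and 21.1% of all genes. Without any 1 of the 2 Gy or 5x2 Gy arrays none was called, and without either 10 Gy array 31 (3 higher, 28 lower, where 29.9% of all genes were called). These regimens lay on different slides. With slide as a fixed block, estimated from the pair of 10 Gy arrays, 7 members were lower and none higher, where 17.7% of all genes were called. Of the members named, that fit left Mrpl1 called, at -0.99 (adjusted p = 0.0081), and Mrps33 (-0.47, adjusted p = 0.24), Mrpl42 (-0.79, adjusted p = 0.072) and Mrpl28 (-0.61, adjusted p = 0.068) not called. The call of Mrpl1 was lost with the mean of all its probes (-0.20, adjusted p = 0.40).

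Between 5x2 Gy and 10 Gy, which have the same total dose, none of the members was called by limma, as for 0% of all genes. At an unadjusted p under 0.05, 21 members were lower after 5x2 Gy and 0 higher, against 7.71% and 9% of all genes. The smallest p-values were those of Mrpl1, at -0.58 (95% interval -0.89 to -0.27), and Mrps33, at -0.76 (-1.16 to -0.35), both with an adjusted p of 0.19, and, upwards, of Mrps6 at 0.41 and Mrpl36 at 0.48 (adjusted p = 0.34 and 0.36). Mrpl42 differed by 0.031 (-0.36 to 0.42), an interval that leaves room for a change in either direction. Without replicate 2 of 10 Gy, 25 members were called lower and 11 higher, where 43.2% of all genes were called and the remaining 10 Gy array lay on the other slide than the 5x2 Gy arrays. Without any other array none was called.

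By Pearson correlation over the 8 arrays, the members most like Mrpl42 were Mrpl45 (r = 0.98), Mrps34 (r = 0.94) and Mrpl28 (r = 0.84). Mrps34, a small subunit protein specific to mitochondria, was at -0.47 and -0.34 after 10 Gy, -0.27, -0.44 and -0.35 after 5x2 Gy, and 0.17, 0.20 and 0.08 after 2 Gy. Like Mrpl42, both Mrpl45 and Mrps34 were below 0 on each array with a total dose of 10 Gy, though the other kept probe of Mrpl45 had means of 0.27 after 10 Gy and 0.28 after 5x2 Gy. With median centring Mrps34 was at 0.046 after 10 Gy.

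Proteins of the mitochondrial ribosome or bound to it that carry other names were counted apart. Of 8 measured, none was called after 2 Gy, 3 were lower after 10 Gy and 3 after 5x2 Gy, with medians of -0.0049, -0.34 and -0.25, where 16.9%, 28.2% and 41% of all genes were called. Ict1, a large subunit protein that frees stalled chains, was at -0.66, -0.45 and -0.52 on the 5x2 Gy arrays and fell by 0.54 (SE 0.09, limma's adjusted p = 0.0017). Gadd45gip1, near the exit tunnel, fell by 0.36 (SE 0.09, adjusted p = 0.013) after 5x2 Gy, and the insertase Oxa1l by 0.44 (SE 0.14, adjusted p = 0.039) after 10 Gy.

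In the machinery around the ribosome, genes were called in both directions after 5x2 Gy, as over all genes (17.6% higher and 23.4% lower). Of 12 translation factors, 4 were lower and 1 higher (median -0.029). The elongation factors Guf1 and Tsfm fell by 0.88 (SE 0.09, limma's adjusted p = 0.00022) and 0.60 (SE 0.08, adjusted p = 0.00071), and the initiation factor Mtif2 rose by 0.64 (SE 0.15, adjusted p = 0.0080). Of 27 genes for ribosome assembly and ribosomal RNA maturation, 6 were higher and 3 lower (median 0.027). In that list Mpv17l2, an assembly factor, rose by 0.63, 0.80 and 0.70 after 2 Gy, 10 Gy and 5x2 Gy (SE 0.09, 0.11 and 0.09), the RNA-binding Fastkd2 fell by 0.85 after 10 Gy and 0.78 after 5x2 Gy (SE 0.18 and 0.14), and the GTPase Mtg2 rose by 0.67 after 10 Gy (SE 0.11). Of 17 mitochondrial aminoacyl-tRNA synthetases, which charge the transfer RNAs, 5 were higher and 3 lower (median 0.039). Tars2 rose by 0.56 and Ears2 by 0.49, while Yars2 fell by 0.45 (SE 0.09, 0.10 and 0.12). The 41% of all genes called in this comparison is the background to these counts.

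Of 20 genes for mitochondrial transcription and RNA maintenance, 9 were lower and 1 higher after 5x2 Gy (median -0.23), 5 lower and 1 higher after 10 Gy, and 4 lower and 1 higher after 2 Gy, beside 41%, 28.2% and 16.9% of all genes called. Tfam, which packs mitochondrial DNA and starts its transcription, was below -1 on all 8 arrays, from -1.66 to -1.01. It fell by 1.30, 1.49 and 1.24 after 2 Gy, 10 Gy and 5x2 Gy (SE 0.11, 0.14 and 0.11, limma's adjusted p = 0.00046, 0.00032 and 0.00019). These falls were larger than that of any mitochondrial ribosomal protein gene in the same comparison, and a dye effect of the Tfam probe was not tested. Ssbp1, which binds single-stranded mitochondrial DNA, fell by 0.60 after 10 Gy and 0.68 after 5x2 Gy (SE 0.14 and 0.12), and Fastkd5, which acts on mitochondrial RNA, by 0.56 after 2 Gy and 0.59 after 5x2 Gy (SE 0.10 and 0.10). Of 9 transcription regulators known to act on nuclear genes for mitochondria, 3 were lower and 1 higher after 5x2 Gy, where 41% of all genes were called. Nrf1 fell by 0.61 (SE 0.10, adjusted p = 0.0016) and Gabpb1, a GABP subunit, by 0.63 (SE 0.10, adjusted p = 0.0014), while Esrra rose by 0.66 (SE 0.09, adjusted p = 0.00071). After 10 Gy, Nrf1 fell by 0.70 and Esrra rose by 1.21 (SE 0.12 and 0.11).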

How the data were processed

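Per the labels, each array held untreated LLC1 RNA in Cy3 and irradiated RNA in Cy5. Per the file headers, the deposited scanner files hold the mean and median intensity of each spot and channel, quantified with ImaGene 9.0, without background correction or normalization. The deposited series matrix holds log2 ratios that matched loess-normalized ratios of the same arrays (r over probes of 0.998 to 1.000, medians of -0.0045 to 0.0087), and served as an alternative. The slide of each array was read from the image names in the headers.

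Mean signals were corrected with normexp (offset 50) and loess-normalized within arrays (limma 3.58.1, R 4.3.3), giving control spots a weight of 0. Of 45220 spots, 153 were negative controls. A probe was kept if either channel exceeded their median by 2.6 robust SD on 2 or more arrays (21685 of 41174 probes), and the brightest kept probe of a gene was tested. Symbols were updated through RefSeq accessions (27814 probes matched, 7130 kept the array's symbol, 6230 had none). No member probe had a median pixel at the scanner's maximum of 65535. Spot flags, whose meaning is not given in the sources used here, touched 11 to 28 member spots per array and were not used. By array and channel, 34.7% to 49.1% of probes passed that limit. Precision is limited by the number of arrays.

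The limma model had a mean for each regimen, fitted over all 8 arrays with eBayes, so that regimens share the spread of a gene. Genes were called at a Benjamini-Hochberg adjusted p of 0.05 over all 13411, and 95% intervals are those of limma. The code was tested on simulated data. Replicates are called biological by the labels, which do not say whether they were separate cultures, so p-values may cover technical spread only. Promoters came from RefSeq tables of GRCm38.p6, and no coordinates belong to the arrays.

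The members, lists and tests were chosen with earlier results of these data known. Members were named by rule: up to 5 with the largest fold per direction and comparison among those called whose arrays share a sign or do not overlap, otherwise the 2 with the smallest p, the 3 widest and 3 narrowest ranges, the 3 most like the leading member, and up to 3 genes with the smallest p per pathway list. Alternatives were other background corrections, normalizations, filters and probe rules, slide and replicate blocks, array weights, fits of fewer arrays, and leaving out each array.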

Additional observations from a re-analysis of the deposited data

Results flagged for a closer look

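The effects of regimens differed by limma's test of the difference itself, over the 8 arrays, in 7 cases, of which Mrpl42 made 2. Between 10 Gy and 2 Gy the differences were -0.83 for Mrpl42, 0.71 for Mrps23 and 0.77 for Mrps31. Between 5x2 Gy and 2 Gy they were -0.77 for Mrpl1, -0.76 for Mrpl28, -0.80 for Mrpl42 and -0.86 for Mrps33. With the mean of all kept probes of a gene, 1 of these 4 was still called. In all 7 the arrays of the compared regimens did not overlap. As the 7 were chosen by the test on these same arrays, this adds no separate support. Over all genes, 14% lay wholly above and 18.2% wholly below for 10 Gy against 2 Gy. For 5x2 Gy against 2 Gy, 21.1% and 25.9% did. With slide as a fixed block, Mrps31 stood at 0.72 and Mrps23 at 0.76 for 10 Gy against 2 Gy, the difference within slide 1. That fit has 1 array of 10 Gy per slide, so limma's p-values from it measure no spread between 10 Gy arrays. For 5x2 Gy against 2 Gy, the same block left Mrpl1 at -0.99 (adjusted p = 0.0081), while 3 of the 4 calls were lost: Mrps33 at -0.47 (adjusted p = 0.24), Mrpl42 at -0.79 (adjusted p = 0.072) and Mrpl28 at -0.61 (adjusted p = 0.068). Mrpl42 was at -0.83 for 10 Gy against 2 Gy in that fit. Without slide in the fit but with the mean of all its kept probes, Mrpl1 was at -0.20 for 5x2 Gy against 2 Gy (limma's adjusted p = 0.40). Over the 21 alternatives run, the adjusted p of Mrps31 ranged from 0.0065 to 0.45, that of Mrps23 from 0.0065 to 0.66, that of Mrpl1 from 6.1e-05 to 0.40, that of Mrps33 from 3.9e-05 to 0.24, that of Mrpl28 from 4.1e-05 to 0.20 and that of Mrpl42 from 6.4e-05 to 0.20 (5x2 Gy) and 0.0082 to 0.49 (10 Gy). The part of slide in the differences between 5x2 Gy and 2 Gy was not tested apart from the 10 Gy arrays that link the slides.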

How the results depend on the processing

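Counts below are members called in 2 Gy, 10 Gy and 5x2 Gy against untreated cells, then 10 Gy against 2 Gy and 5x2 Gy against 2 Gy, where the main values are 7, 10, 37, 3 and 4. Shares of all genes called are given beside them in the same order, with main values of 16.9%, 28.2%, 41%, 2.56% and 1.3%. Median centring gave 24, 19, 22, 1 and 15 (26.9%, 29.2%, 39%, 3.68% and 5.58% of all genes), and medians of 0.28, 0.20 and -0.25. It turned the sign of Mrpl35 after 2 Gy (0.063) and 10 Gy (0.055) and of Mrps34 after 10 Gy (0.046). Scaling between arrays gave 20, 7, 28, 0 and 0 (30.8%, 20.5%, 29.6%, 0.201% and 0.418% of all genes), and the mean of all probes 2 for the last (1.82%). Slide as a fixed block gave 17, 22, 25, 14 and 7 (33.3%, 48.6%, 36.5%, 32.1% and 17.7% of all genes), with a median of -0.24 after 5x2 Gy. As a random block it gave 0, 1, 3, 8 and 1 (0.157%, 10.9%, 6.09%, 21.7% and 1.76%). Array weights gave 33, 0, 52, 0 and 52 (54.3%, 1.66%, 66.8%, 0.0149% and 44.9% of all genes). Fits of the compared arrays alone gave 19, 0, 46, 0 and 31 (35.9%, 2.24%, 59.9%, 0% and 29.9%). The causes were not tested.

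Deviations of same-numbered arrays had correlations of -0.24 to 0.11, so the numbers were not read as a pairing. With the replicate block the counts were 2, 6, 33, 0 and 0 (10.6%, 17%, 35.3%, 0% and 0% of all genes).

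Leaving out each array gave 0 to 24, 7 to 29, 18 to 45, 0 to 14 and 0 to 31, and 0 to 36 for 5x2 Gy against 10 Gy. The highest counts came from leaving out an array of 10 Gy. There 40.2% of all genes were called after 2 Gy, 59.5% after 5x2 Gy and 29.9% between 5x2 Gy and 2 Gy. In the comparisons that use 10 Gy, these counts rest on 1 array of that regimen. The share of all genes called was above its main value there as well. Without an array of 2 Gy or 5x2 Gy, 3.04% to 12.5% of all genes were called after 2 Gy and 22.4% to 37.9% after 5x2 Gy. The medians ranged from -0.097 to -0.012 after 2 Gy, -0.11 to -0.073 after 10 Gy and -0.36 to -0.27 after 5x2 Gy. Each regimen's median could move only where 1 of its own arrays was left out. With 1 array of 10 Gy left, it is assumed to vary like the other regimens. Moving Mrps30 and Mrps18a to the large subunit gave medians of -0.059 (large, 2 Gy) and -0.20 (small, 5x2 Gy). The other settings, with no or another background correction, the series matrix values, or other filters, kept each count within 1.5 times the main one.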
